A study of Mus musculus with 4 samples.

Results

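Collagens are the main structural proteins of the extracellular matrix, and the genes described here are the 44 mouse collagen chain genes found among the 40999 features that the gonad libraries list. A gene was taken as a member when its symbol had the form Col, a type number, the letter a and a chain number, so the choice used names and no measured value. The 44 genes were sorted by known structure into 11 fibrillar genes, 6 basement membrane genes (Col4), 6 Col6 genes and 21 genes of other types. Total RNA of C57BL/6J wild-type mouse gonads was sequenced daily between embryonic days E11.5 and E14.5, the days on which the bipotential gonad becomes a testis or an ovary. Each of the 4 time points is 1 library from 1 pool that mixed XX and XY gonads. A pool took no fewer than 6 gonads of either sex out of 2 litters, so no value below separates the sexes. The E11.5 pool held whole genital ridges with the mesonephros, the adjoining embryonic kidney, and the E12.5, E13.5 and E14.5 pools held gonads freed of it. No group carried a transgene, a mutation or a treatment. In bulk RNA of this kind, a lower value can mean fewer cells of a type or less RNA per cell, and these cannot be told apart.

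A collagen molecule is built of 3 chains wound into a triple helix, and the chains of 1 molecule are often products of different genes. Fibrillar collagens assemble into the banded fibres of connective tissue, Col4 chains form the meshwork of basement membranes, and Col6 chains form beaded microfilaments around cells. In the fetal gonad, basement membranes enclose the testis cords and the vessels, and mesenchymal cells between these structures produce interstitial matrix.

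With 1 library per time point there was no replicate check, so no test across samples was possible and no p-value is given. Levels across time are given as scaled RPKM, the read count divided by the exon length in kb and by the library size after TMM scaling, which centres the bulk of genes between libraries. Levels of different genes within 1 library are compared by deposited TPM, which is corrected for transcript length. A change is the log2 ratio of TMM-scaled counts with a 95% exact Clopper-Pearson interval, which covers counting error only. A gene entered a comparison with at least 10 counts in 1 of the 2 libraries, and a change of at least 2-fold was counted as higher or lower. The comparisons share libraries and are not independent of one another.

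The libraries held 31266481, 25593453, 31752562 and 31526303 deduplicated counts in order of age. The 18S rRNA gene Rn18s-rs5 took 9.06%, 1.31%, 1.03% and 40.7% of them, so the E14.5 library stands apart. TMM multiplied the library sizes by 1.10, 1.22, 1.25 and 0.598. Scaling by total counts in place of TMM lowered every gene of the E14.5 versus E13.5 comparison by 1.06 on the log2 scale, and each change to E14.5 below holds relative to the median of all genes. Total counts without Rn18s-rs5 left the median of all genes at -0.34 in that comparison. The labelled tissue carried its markers: Sertoli cell genes were summed at 94.1, 551, 476 and 517 TMM-scaled CPM (scaled CPM) and germ cell genes at 14.2, 289, 376 and 330. The summed nephric and mesonephric markers stood at 187 scaled CPM at E11.5 and between 22.3 and 28.1 afterwards. The difference between E11.5 and E12.5 therefore covers both age and dissection, which cannot be told apart.

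The upstream sequences of Col1a2, Col3a1, Col6a1 and Col6a2 are shown before the values, because these genes carry much of the fibrillar and Col6 account. RefSeq promoter windows of build GRCm38.p6 were matched for 35 of the 44 genes. Col1a1, Col2a1, Col4a3, Col5a2, Col9a3, Col12a1, Col14a1, Col22a1 and Col26a1 had no entry. A GC box, GGGCGG on either strand within 250 bases upstream, was found in 21 of the 35 windows (60.0%), against 32.7% of 32851 windows of all genes and 53.8% of those of genes with at least 10 counts. A CCAAT box, CCAAT on either strand, was found in 12 of 35 (34.3%), against 33.8% of all windows. A TATA box, TATAAA on either strand, was found in 5 of 35 (14.3%), against 12.4% of all and 6.94% of the genes with counts, and the members were Col3a1, Col10a1, Col11a2, Col13a1 and Col17a1. The stretches below run 5′ to 3′ on the gene's strand, with matched motifs in capitals. Bases that lay in an exon of another transcript of the same gene were left out. Col1a2 was also among the genes with a CCAAT box, which is not within its printed stretch. A match is a run of letters and not a shown binding site.

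Col1a2 upstream, chr6:4505370-4505492, plus strand, 2 GC boxes in capitals from position -205 to -200 and -188 to -183 before the RefSeq start:
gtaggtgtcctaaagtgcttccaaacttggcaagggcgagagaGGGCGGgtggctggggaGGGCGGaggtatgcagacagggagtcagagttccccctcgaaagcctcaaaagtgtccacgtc

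Col3a1 upstream, chr1:45311288-45311537, plus strand, a TATA box in capitals from position -117 to -112 before the RefSeq start:
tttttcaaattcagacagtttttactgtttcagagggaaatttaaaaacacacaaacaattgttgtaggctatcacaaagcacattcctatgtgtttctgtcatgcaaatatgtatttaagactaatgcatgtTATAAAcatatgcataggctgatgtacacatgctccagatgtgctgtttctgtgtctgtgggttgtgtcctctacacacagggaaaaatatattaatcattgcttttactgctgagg

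Col6a1 upstream, chr10:76726169-76726294, minus strand, none of the 3 motifs:
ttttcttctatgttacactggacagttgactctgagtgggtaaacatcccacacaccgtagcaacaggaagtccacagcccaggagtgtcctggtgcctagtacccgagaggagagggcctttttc

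Col6a2 upstream, chr10:76623631-76623880, minus strand, a GC box on the opposite strand in capitals from position -175 to -170:
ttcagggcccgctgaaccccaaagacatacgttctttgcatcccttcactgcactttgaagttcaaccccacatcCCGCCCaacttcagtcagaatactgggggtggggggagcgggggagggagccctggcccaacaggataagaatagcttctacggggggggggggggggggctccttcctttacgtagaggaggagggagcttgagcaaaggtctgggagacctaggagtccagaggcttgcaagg

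Between E11.5 and E12.5, 17 of the 43 genes tested were higher by at least 2-fold, against 9.03% of all 19500 genes tested, and 5 were lower, against 9.72% (18.7% of all genes moved in either direction). Their median change was 0.34, and that of all tested genes was -0.01. From E12.5 to E13.5, 1 of 43 was higher (3.80% of all genes) and 1 was lower (2.14%, and 5.94% for either direction), with a median of 0.09. From E13.5 to E14.5, 4 of 43 were higher (6.43% of all) and 2 were lower (3.11%, and 9.54% for either direction), with a median of 0.31. Over both later days, E14.5 against E12.5, 13 of 43 were higher (9.00% of all) and 2 were lower (4.15%, and 13.1% for either direction), with a median of 0.50. Total counts without Rn18s-rs5 gave 6 higher and 6 lower for E14.5 against E12.5, with a median of 0.20, and 1 higher and 2 lower for the last day, with a median of -0.01. Total counts of all genes gave 2 higher and 14 lower (median -0.53) for E14.5 against E12.5, and 0 higher and 11 lower (median -0.75) for the last day. The deposited TPM gave 1 higher and 20 lower (median -0.98), and 0 higher and 30 lower (median -1.31). The direction of the class at E14.5 therefore rests on the scaling, while at E12.5 these alternatives gave 18 or 19 higher and 3 to 5 lower. Col10a1, a chain of growth plate cartilage, had 1 or 2 counts in each library and entered no comparison.

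**Figure D1:**
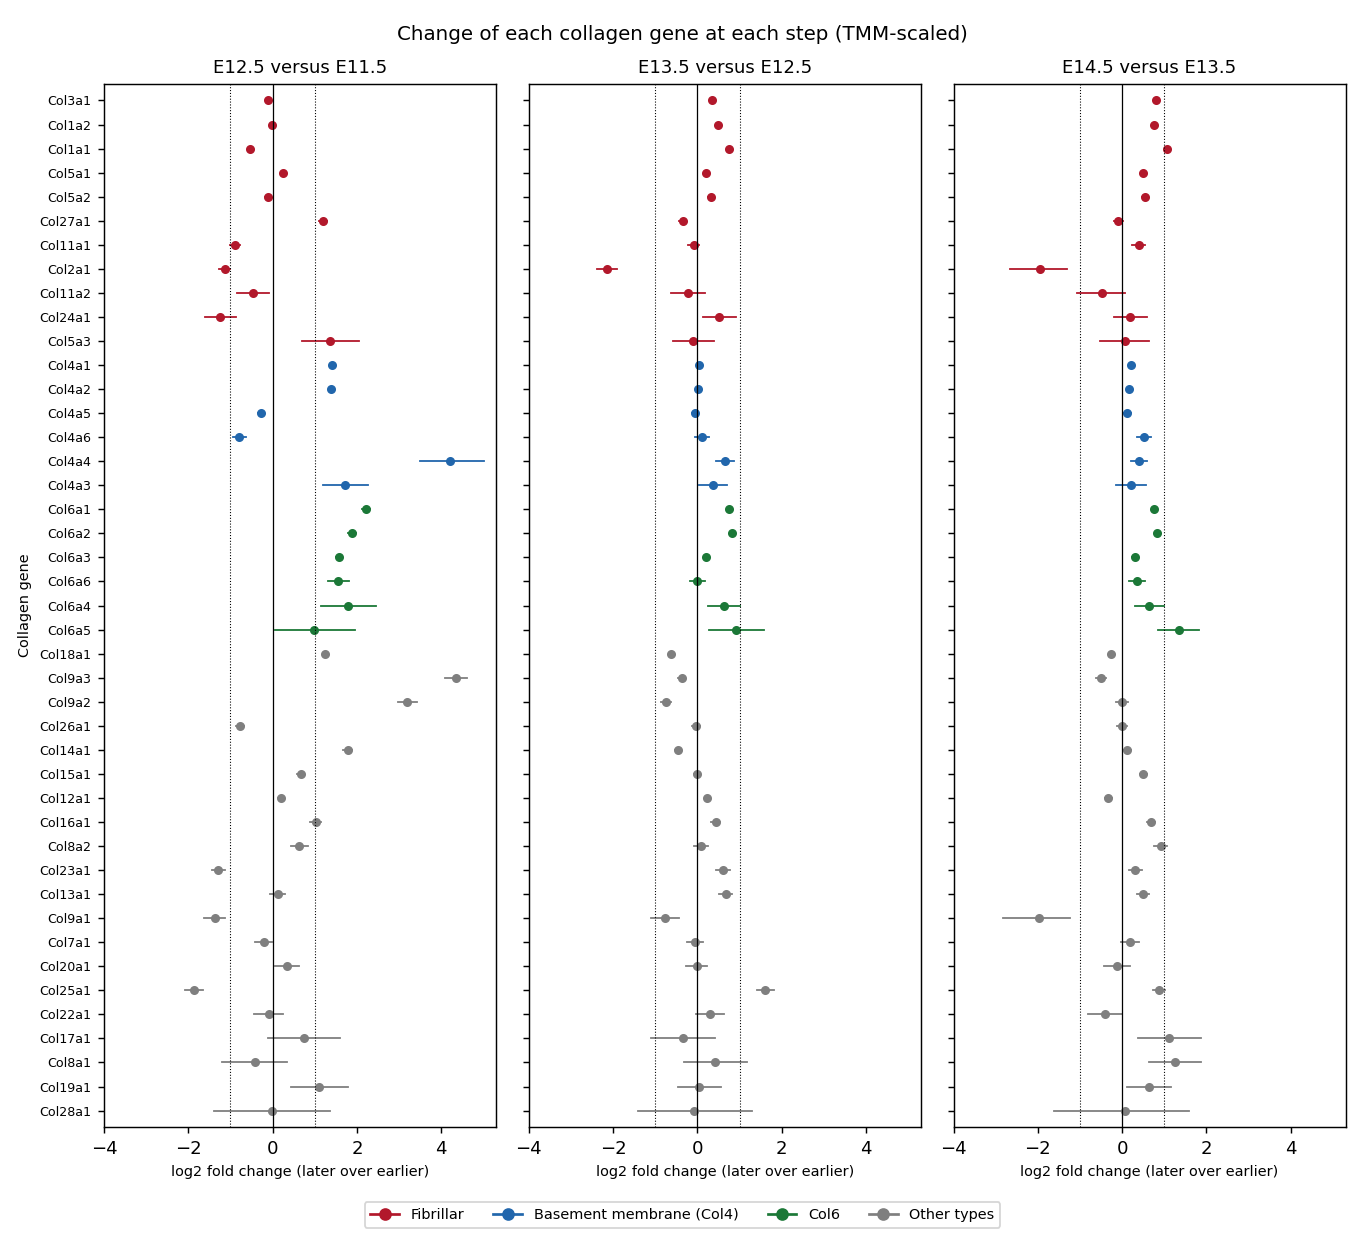
Log2 fold change of each of the 43 tested collagen genes (rows, by class and colour) at the 3 daily steps, TMM-scaled, with 95% exact intervals of counting error as horizontal bars and dotted lines at 2-fold. The 17 genes past the right-hand line at E12.5 include 4 Col4 and 5 Col6 genes, and few points lie past either line afterwards.

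Of the 43 genes, 14 had a higher level on each later day, by whatever amount, a path taken by 10.9% of all 20226 genes with at least 10 counts in a library. These were Col4a1, Col4a2, Col4a3, Col4a4, Col5a1, Col6a1, Col6a2, Col6a3, Col6a4, Col6a5, Col8a2, Col13a1, Col16a1 and Col19a1. Col2a1, Col9a1 and Col11a2 had a lower level on each later day, a path taken by 10.6% of all genes. The level was highest at E14.5 in 23 of 43 (27.4% of all genes) and lowest at E11.5 in 25 of 43 (34.3% of all genes). The paths that end at E14.5 rest on the scaling of that library. Of the 43, 13 were higher on each later day and 19 highest at E14.5 by total counts without Rn18s-rs5, 1 and 2 by total counts, and 0 and 0 by deposited TPM. The level was lowest at E11.5 in 24, 23 and 20 of the 43 under the same alternatives.

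**Figure D2:**
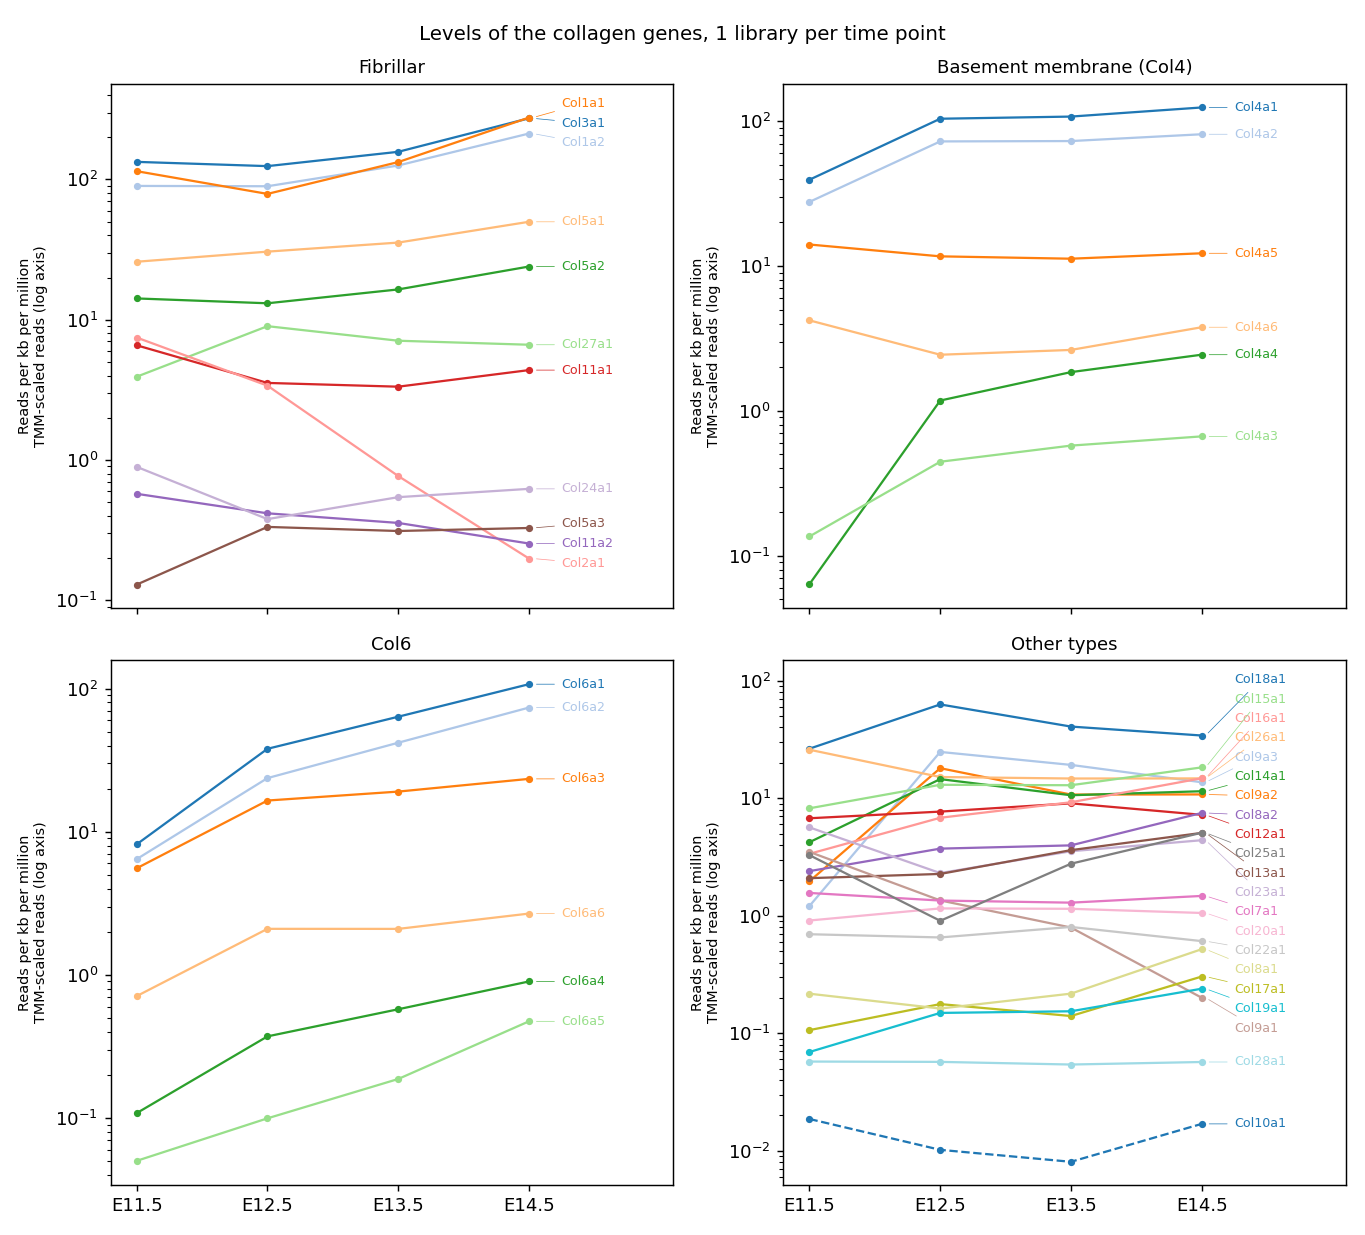
Level of each collagen gene in each library, as scaled RPKM on a log axis, in 4 panels by class, 1 library per point. Col3a1, Col1a1 and Col1a2 lead at E11.5 and E14.5, all 6 Col6 genes lie higher at E12.5 than at E11.5, and Col2a1 and Col9a1 fall throughout. The dashed line is Col10a1, which had at most 2 counts.

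Summed over the family, the level was 603, 803, 950 and 1432 scaled RPKM in order of age, and 930, 1510, 1957 and 961 by deposited TPM, so the sum at E14.5 was the highest on the first scale and about as low as at E11.5 on the other. The make-up of this sum can be read within each library, where no scaling between libraries enters. Fibrillar genes held 66.0% of the collagen TPM in the E11.5 library, and then 44%, 50.6% and 59.2%. Col4 genes held 14.2%, 23.9%, 20.7% and 15.7%. Col6 genes held 3.49%, 10.1%, 13.4% and 14.6%, a share that was larger at each later day. The other types held 16.3%, 22.0%, 15.3% and 10.6%. A few genes carried most of the sum: the leading 5 held 67.2%, 58.4%, 62.8% and 69.3%. They were Col3a1, Col1a1, Col1a2, Col4a1 and Col4a2 in the first 3 libraries, and at E14.5 Col6a1 took the place of Col4a2. Of the 44 genes, 33, 33, 36 and 28 had at least 1 TPM.

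**Figure D3:**
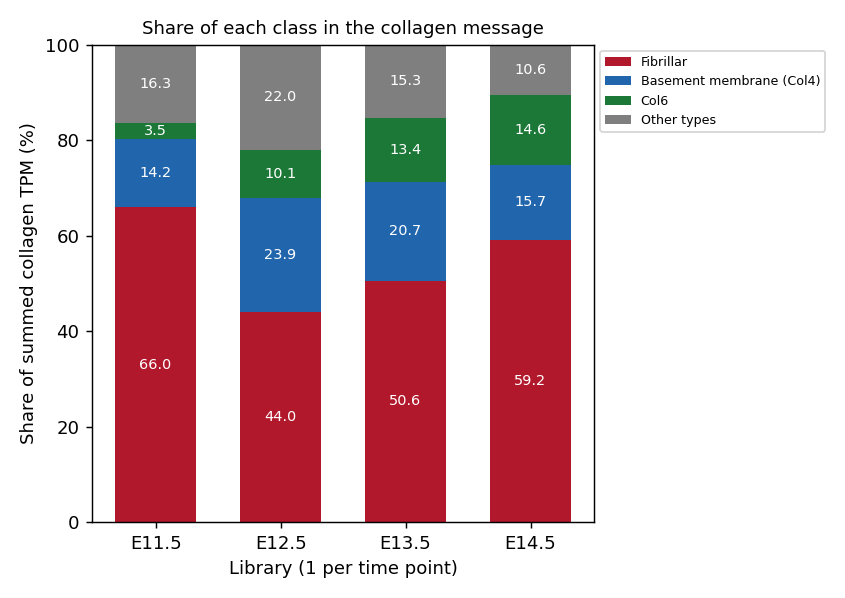
Share of the summed collagen TPM held by each class in each library (percent, stacked bars from 0 to 100). Fibrillar genes hold the largest share on every day, from 44% to 66.0%, and the Col6 share grows from 3.49% to 14.6%.

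Col3a1, which forms the homotrimer collagen III of soft connective tissue, was the most abundant fibrillar gene by TPM in the first 3 libraries. Its level was 133, 124, 157 and 273 scaled RPKM, from 25427, 21693, 34676 and 28596 counts. It was nearly level between E11.5 and E12.5, at -0.10 (-0.13 to -0.07), and then 0.34 and 0.79 higher at the following steps.

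Col1a1 and Col1a2 encode the chains of collagen I, which has 2 α1 chains and 1 α2 chain. Col1a1 (chr11:94936270-94951867) stood at 115, 78.9, 133 and 276 scaled RPKM, lowest at E12.5. It was 0.54 lower at E12.5 than at E11.5, a change of -0.54 (-0.57 to -0.50), and 1.05 (1.03 to 1.08) higher at E14.5 than at E13.5, the only fibrillar gene past 2-fold upwards in that step. Col1a2 (chr6:4505697-4541543) stood at 89.9, 89.4, 126 and 212, with changes of -0.01, 0.49 and 0.76. From E12.5 to E14.5 Col1a1 rose 3.50-fold, Col1a2 2.37-fold and Col3a1 2.19-fold. Under total counts the E14.5 versus E13.5 value of Col1a1 was -0.01, so its direction there rests on the scaling. By deposited TPM, Col1a2 and Col3a1 stood at -0.24 and -0.35 for E14.5 against E12.5.

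The ratio of the chains within a library does not. Col1a1 over Col1a2 was 1.27 (1.25 to 1.30) in the E11.5 library by TPM, and then 0.882 (0.861 to 0.904), 1.06 (1.04 to 1.08) and 1.30 (1.28 to 1.32). The E12.5 library had the lowest ratio, and its interval did not meet those of the other libraries. Col3a1 over Col1a1 ran the opposite way, at 1.17, 1.58, 1.18 and 0.988, and was highest at E12.5. These intervals hold counting error and not the spread between pools.

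Col5a1 and Col5a2 encode collagen V, a minor chain pair that starts and limits collagen I fibrils. Col5a1 stood at 25.9, 30.6, 35.5 and 49.9 scaled RPKM, and Col5a2 (chr1:45374331-45503282) at 14.2, 13.1, 16.4 and 23.9. Both were below 2-fold in every comparison, with E14.5 against E12.5 at 0.71 and 0.87. Col5a2 lies 24624 bases from Col3a1, tail to tail on chromosome 1, and at the first step the pair differed by little, with -0.11 for Col5a2 and -0.10 for Col3a1. Col5a3, a rarer chain, had only 28 to 78 counts and was 1.37 (0.71 to 2.06) higher at E12.5 than at E11.5.

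Among the fibrillar chains known from cartilage, Col2a1 fell at each step, while Col11a1 and Col11a2 did not pass 2-fold. Col2a1, the principal chain of cartilage collagen, had 1502, 624, 179 and 22 counts, or 7.46, 3.39, 0.769 and 0.199 scaled RPKM. It was lower at each step, by -1.14 (-1.28 to -1.0), -2.14 (-2.39 to -1.90) and -1.95 (-2.66 to -1.31). It was the only collagen past 2-fold downwards from E12.5 to E13.5, and E14.5 stood 17.1-fold below E12.5. Col11a1, which joins Col2a1 in cartilage fibrils and occurs with collagen V elsewhere, had 1690, 834, 991 and 619 counts, and its scaled level was 6.57, 3.55, 3.33 and 4.38. Col2a1 over Col11a1 was 1.14 (1.06 to 1.22), 0.956 (0.860 to 1.06), 0.231 (0.196 to 0.271) and 0.0454 (0.0282 to 0.0694). The ratio was close to 1 on the first days and fell apart at E13.5 and E14.5. Col11a2, the remaining type XI chain, had 152, 101, 109 and 37 counts and did not pass 2-fold in any comparison.

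The list of cartilage and sclerotome markers did not move as one. Its 12 genes were summed at 150, 151, 126 and 95 scaled CPM. At E12.5, 2 of 8 tested were higher, namely Acan and Cnmd, listed as Lect1. Comp, Hapln1 and Nkx3-2 were the 3 lower, against 9.03% higher and 9.72% lower of all genes. The changes ran from -4.19 to 4.26. Acan, the aggrecan gene, had 71, 309, 404 and 176 counts, while Hapln1 had 2497, 947, 799 and 319. Nkx3-2, a sclerotome factor, had 40, 2, 3 and 0 counts. Matn1, a cartilage matrilin, had at most 1 count in any library, and Snorc, listed under its older symbol, was at 0 in 3 of the 4. Their part in the Col2a1 result was not tested.

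Col27a1 and Col24a1 encode the more recently described fibrillar chains. Col27a1 had 1125, 2359, 2348 and 1046 counts, or 3.93, 9.0, 7.09 and 6.64 scaled RPKM, and was 1.2 (1.09 to 1.30) higher at E12.5 than at E11.5. Col24a1 went the other way in that step, from 219 to 85 counts, a change of -1.24 (-1.62 to -0.87). Of the 11 fibrillar genes, 2 were higher and 2 lower at the first step, 0 and 1 at the next and 1 and 1 at the last, with medians of -0.11, 0.21 and 0.39. Over all genes the shares were 9.03% and 9.72%, then 3.80% and 2.14%, then 6.43% and 3.11%, so single genes of 11 are near the background. For E14.5 against E12.5, 3 were higher, namely Col1a1, Col1a2 and Col3a1, Col2a1 was lower, and the median was 0.71, against 9.00% higher and 4.15% lower of all genes.

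The Col4 genes occur as head-to-head pairs, and the members of a pair can share a promoter region. Col4a1 and Col4a2, whose chains form the ubiquitous collagen IV molecule, lie on chromosome 8 with 2 bases between them (Col4a1 at chr8:11198423-11312826, Col4a2 at chr8:11312829-11449287). Col4a1 stood at 39.4, 104, 108 and 124 scaled RPKM, from 10073, 24301, 31782 and 17481 counts. Col4a2 stood at 27.7, 72.5, 72.9 and 81.2, from 6099, 14595, 18549 and 9835 counts. Both rose at E12.5 and were nearly flat thereafter. The changes at E12.5 were 1.40 (1.37 to 1.43) and 1.39 (1.34 to 1.43), and those at the later steps lay between 0.01 and 0.21. Col4a1 over Col4a2 was 1.42 (1.38 to 1.47), 1.43 (1.41 to 1.46), 1.48 (1.45 to 1.5) and 1.53 (1.49 to 1.57), the steadiest of the ratios drawn.

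Col4a3 and Col4a4, whose chains with that of Col4a5 make the collagen IV of mature glomeruli, lie head to head on chromosome 1 with 71 bases between their deposited starts. This gap is shown because both genes rose most steeply of the class. It reads on the strand of Col4a4, and the bases beyond it are left out as Col4a3 exon.

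Col4a4 to Col4a3 gap, chr1:82586850-82586920, minus strand, none of the 3 motifs:
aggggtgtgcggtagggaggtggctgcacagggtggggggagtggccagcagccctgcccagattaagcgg

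Col4a4 had 17, 288, 572 and 359 counts, or 0.0636, 1.18, 1.85 and 2.44 scaled RPKM, and was 4.21 (3.51 to 5.01) higher at E12.5, an 18.5-fold change. Col4a3 had 40, 120, 196 and 108 counts and was 1.71 (1.19 to 2.27) higher, a 3.28-fold change. The 2 intervals did not meet, so the pair did not keep its ratio across the gap. Col4a3 over Col4a4 was 2.13 (1.18 to 4.01), 0.378 (0.303 to 0.469), 0.311 (0.263 to 0.366) and 0.273 (0.218 to 0.339) in order of age. Col4a3 was the more abundant at E11.5 and Col4a4 on all 3 later days.

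Col4a5 and Col4a6, the X-linked pair, lie 1293 bases apart head to head. Col4a5 had 3157, 2393, 2913 and 1511 counts and stayed between 11.2 and 14.1 scaled RPKM. Col4a6 stood at 4.21, 2.44, 2.63 and 3.78. Neither passed 2-fold in any comparison, and at E12.5 they were at -0.27 (-0.35 to -0.19) and -0.79 (-0.95 to -0.63) while the other 4 Col4 genes rose. Col4a5 over Col4a1 therefore fell from 0.357 (0.343 to 0.371) at E11.5 to 0.112 (0.107 to 0.117) at E12.5, and was 0.104 and 0.0984 later. For the class of 6, 4 were higher and 0 lower at E12.5 with a median of 1.39, against 9.03% and 9.72% of all genes. On the later days none of the 6 passed 2-fold in a single day. Over E12.5 to E14.5 only Col4a4 did, at 1.05 (0.82 to 1.28), against 9.00% higher of all genes.

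Sources of basement membrane in the gonad include Sertoli cells and endothelium. The Sertoli markers rose in 5 of 6 genes at E12.5 (9.03% of all genes) with a median of 3.32, led by Amh at 45, 8900, 10299 and 5683 counts. The 8 endothelial markers did not pass 2-fold in any comparison and were summed at 430, 407, 306 and 278 scaled CPM. Nephric markers moved the opposite way, with 8 of 10 lower at E12.5, against 9.72% of all genes. The part of these cells in the Col4 values was not tested.

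At E12.5 all 6 Col6 genes stood above E11.5, with changes from 0.99 to 2.22. Collagen VI is built of an α1 chain, an α2 chain and a further chain that can be α3, α4, α5 or α6. Col6a1 (chr10:76708792-76726044) had 1113, 4730, 10015 and 8041 counts, or 8.17, 38.0, 63.6 and 107 scaled RPKM. It was 2.22 (2.12 to 2.31) higher at E12.5 than at E11.5, 0.74 (0.69 to 0.79) higher at E13.5 and 0.75 (0.71 to 0.80) higher at E14.5. Col6a2, which lies 85166 bases away on the same strand, had 1325, 4462, 9962 and 8343 counts, or 6.44, 23.7, 41.9 and 73.7 scaled RPKM. Its changes were 1.88, 0.82 and 0.82. Both genes were at their lowest at E11.5, and their TMM-scaled levels were higher on each later day. The last step rests on the scaling. In deposited TPM, Col6a1 and Col6a2 stood at 131 and 86.2 at E13.5 and at 72.0 and 49.4 at E14.5.

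Col6a3 (chr1:90766860-90843971), the usual partner of these chains, did not keep up. It stood at 5.56, 16.5, 19.1 and 23.4 scaled RPKM, with changes of 1.57 (1.5 to 1.64), 0.21 (0.16 to 0.26) and 0.30 (0.24 to 0.35). The ratio of Col6a1 to Col6a3 was 1.47 (1.37 to 1.58), 2.30 (2.21 to 2.39), 3.33 (3.24 to 3.43) and 4.59 (4.42 to 4.75) by TPM, and no interval met the next. The ratio of Col6a1 to Col6a2 was 1.27 (1.17 to 1.38) and then between 1.46 and 1.60.

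The alternative chains were rarer. Col6a6 had 189, 510, 644 and 392 counts, Col6a4 28, 88, 172 and 128, and Col6a5 16, 29, 69 and 83. They lie in a row on chromosome 9, with 27813 and 29674 bases between neighbours. Col6a6 over Col6a3 stayed between 0.110 and 0.128, so Col6a6 moved with Col6a3 rather than with the α1 and α2 chains. Col6a4 was 1.78 (1.15 to 2.45) higher at E12.5. Col6a5 was higher at each step and passed 2-fold at E14.5, at 1.34 (0.86 to 1.82). Their summed level stayed below that of Col6a3 on every day.

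At E12.5, 5 of the 6 Col6 genes were higher by at least 2-fold, against 9.03% of all genes. Col6a5 stood at 0.99 (0.06 to 1.97), and the class median was 1.68. The class median was 0.69 at E13.5 and 0.70 at E14.5. For E14.5 against E12.5, 4 were higher and 0 lower, against 9.00% and 4.15% of all genes, and the median was 1.39. Markers of interstitial and mesenchymal cells, a source of collagen VI, were summed at 1109, 1101, 1085 and 1307 scaled CPM. Fetal Leydig cell markers rose at the first 2 steps, at 13.3, 171, 700 and 1152 scaled CPM, with Insl3, their testis hormone gene, at 0 in the E11.5 library. Of these markers, 6 of 6 were higher at E12.5 and at E13.5, against 9.03% and 3.80% of all genes. Their part in the Col6 values was not tested.

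**Figure D4:**
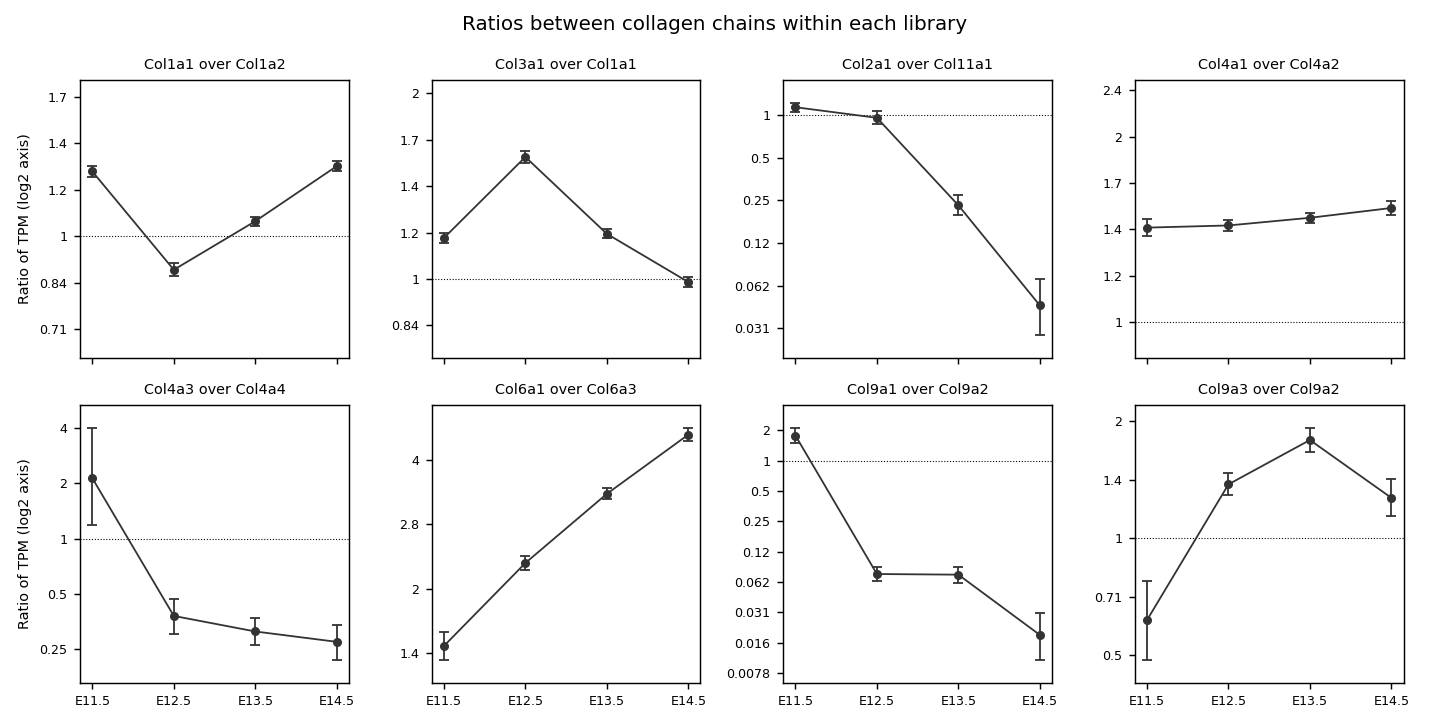
Ratio of TPM between 8 pairs of collagen genes within each library (log2 axis, axis range set per panel), with 95% exact intervals of counting error and a dotted line at 1. Col4a1 over Col4a2 stays between 1.42 and 1.53, Col6a1 over Col6a3 grows from 1.47 to 4.59, and Col9a1 over Col9a2 falls from 1.78 to 0.0186.

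The collagen IX genes gave the largest splits among chains of 1 molecule. Collagen IX coats cartilage fibrils and is made of 1 chain each of Col9a1, Col9a2 and Col9a3. Col9a3 (chr2:180597795-180622185) had 126, 2356, 2309 and 782 counts, or 1.21, 24.8, 19.2 and 13.7 scaled RPKM, and rose 20.4-fold at E12.5, a change of 4.35 (4.09 to 4.62). Col9a2 (chr4:121039566-121055325) had 185, 1549, 1168 and 557 counts and rose 9.15-fold, 3.19 (2.97 to 3.42). Col9a1 (chr1:24177588-24252738) had 506, 179, 133 and 16 counts and was lower at E12.5, at -1.37 (-1.62 to -1.12), and again at E14.5, at -1.98 (-2.83 to -1.23). By point value Col9a3 showed the largest rise of the family, with an interval that overlapped that of Col4a4, while Col9a1 was among the 5 collagens lower by at least 2-fold in the same step.

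Col9a1 over Col9a2 was 1.78 (1.5 to 2.11), 0.0750 (0.0639 to 0.0876), 0.0739 and 0.0186 (0.0106 to 0.0305) in order of age. Col9a3 over Col9a2 stayed nearer to 1, at 0.616, 1.38, 1.79 and 1.27. Col9a1 and Col2a1 fell together over the series, from 3.49 to 0.201 and from 7.46 to 0.199 scaled RPKM. Col9a2 and Col9a3 rose at E12.5, as did 5 of the 6 Sertoli markers, and were at -0.74 and -0.86 from E12.5 to E14.5, when the Sertoli list had a median of -0.09, with Sox9, the factor that starts Sertoli differentiation, at -0.79 and Sox8 at 0.68. The part of Sertoli cells in these values was not tested.

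Col18a1 and Col15a1 encode the multiplexins, basement membrane collagens that carry the endostatin-type fragments. Col18a1 was the most abundant gene of the other types by TPM in every library, with Col26a1 close behind at E11.5 (40.7 against 39.9 TPM). It stood at 26.4, 62.8, 40.7 and 34.1 scaled RPKM, from 8578, 18668, 15292 and 6107 counts. It rose 1.25 (1.21 to 1.29) at E12.5 and then moved down by -0.63 (-0.66 to -0.59) and -0.25 (-0.30 to -0.21). Col15a1 stood at 8.21, 13, 12.9 and 18.3 and did not pass 2-fold in any comparison. The ratio of the pair was 3.22, 4.83 (4.62 to 5.04), 3.16 and 1.87 (1.77 to 1.97), highest at E12.5 and lowest at E14.5.

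Among the collagens that attach to fibrils (FACITs), Col14a1 had 1021, 3213, 2961 and 1524 counts and was 1.78 (1.68 to 1.89) higher at E12.5. Col16a1 had 649, 1203, 2060 and 1569 counts, or 3.36, 6.82, 9.24 and 14.8 scaled RPKM, and was 1.02 (0.88 to 1.16), 0.44 and 0.68 higher at the 3 steps. Col12a1 stayed between 6.75 and 9.04 scaled RPKM. Col19a1, with 30 to 77 counts, was 1.10 (0.45 to 1.79) higher at E12.5, Col20a1 stayed between 0.911 and 1.15 scaled RPKM, and Col22a1 between 0.608 and 0.803. Col19a1 lies 4944 bases from Col9a1, tail to tail, and the pair moved in opposite directions at E12.5.

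The membrane-spanning collagens, whose chains sit in the cell surface, included the only gene past 2-fold upwards at E13.5. Col25a1, a brain and muscle collagen, had 917, 232, 897 and 783 counts, or 3.27, 0.906, 2.77 and 5.08 scaled RPKM. It dropped at E12.5 by -1.85 (-2.07 to -1.65) and rose at E13.5 by 1.61 (1.40 to 1.83) and at E14.5 by 0.88 (0.74 to 1.02). The change from E12.5 to E14.5 was 5.61-fold. Col23a1 fell in the same first step, from 1220 to 456 counts, at -1.29 (-1.45 to -1.14), and was 0.62 higher at E13.5. Col13a1 was at 0.12 at E12.5 and 1.16 (0.99 to 1.33) higher at E14.5 than at E12.5. Col17a1, the hemidesmosome collagen, had 21 to 33 counts and intervals that held 0 at the first 2 steps. It was 1.12 (0.37 to 1.86) higher at E14.5 than at E13.5. For E14.5 against E12.5, Col23a1 was at 0.93 (0.74 to 1.11) and Col17a1 at 0.78 (0.03 to 1.53). These rises rest on the scaling. In deposited TPM, Col13a1, Col17a1 and Col23a1 stood at 4.26, 0.333 and 4.33 at E12.5 and at 3.40, 0.204 and 2.94 at E14.5. Col25a1 went from 1.70 to 3.41 TPM.

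Col8a1 and Col8a2 encode the short-chain collagen VIII of vessel walls and of the cornea. Col8a2 stood at 2.40, 3.72, 3.97 and 7.49 scaled RPKM, with the largest step at E14.5, 0.92 (0.76 to 1.07), and was 1.01 (0.84 to 1.18) higher at E14.5 than at E12.5. Col8a1 had 38, 26, 44 and 50 counts and was 1.26 (0.64 to 1.87) higher at E14.5 than at E13.5. Under deposited TPM both genes were lower at E14.5 than at E13.5. Col26a1, a collagen known from testis and ovary, had 2971, 1593, 1955 and 932 counts and was at -0.77 (-0.86 to -0.68) at E12.5, then flat at 14.7 to 15.1 scaled RPKM. Col7a1, the anchoring fibril collagen of skin, stayed between 1.29 and 1.56. Col28a1 had 6 to 12 counts, too few to show any change. Of the 20 tested genes of the other types, 6 were higher and 3 lower at E12.5 with a median of 0.26 (9.03% and 9.72% of all genes), and 5 were higher and 1 lower for E14.5 against E12.5 with a median of 0.06 (9.00% and 4.15% of all genes).

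The proteins that make, cut, hold and degrade collagen were read from 5 lists of pathway genes. None of the 18 modifying and folding genes passed 2-fold in any of the 4 comparisons, with medians of 0.09, -0.06, 0.11 and 0.07. Serpinh1, the collagen chaperone HSP47, had 17815, 15741, 17787 and 10077 counts and stayed between -0.16 and 0.25 at each step. P4hb, a subunit of prolyl 4-hydroxylase, lay between -0.14 and 0.21.

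The 14 processing and crosslinking genes were mixed. At E12.5, 3 were higher and 2 lower, against 9.03% and 9.72% of all genes. Adamts2, the main procollagen N-proteinase, had 315, 1888, 3036 and 1929 counts and was 2.71 (2.54 to 2.89) higher, while Adamts3, a related proteinase, was at -1.57 (-1.82 to -1.32). Lox, the lysyl oxidase that crosslinks fibrils, was 1.22 (1.04 to 1.40) higher at E12.5 and 1.07 (0.95 to 1.19) higher at E14.5 than at E13.5. Adamts14 was 1.09 (0.83 to 1.36) higher at E12.5 and Tll1, a tolloid-type procollagen C-proteinase, was at -2.31 (-2.79 to -1.86). None of the 14 passed at E13.5. At E14.5 Lox and Tll1 were higher and Pcolce2 and Tll2, both with under 50 counts in each library, were lower. The shares of all genes were 6.43% and 3.11%. From E12.5 to E14.5 Lox, Loxl1 and Tll1 were higher, each by 1.31 to 1.55, and Pcolce2 was lower.

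Among 10 receptors, Ddr2, a tyrosine kinase receptor for fibrillar collagen, had 3461, 549, 814 and 732 counts. It was at -2.53 (-2.66 to -2.40) at E12.5 and 1.15 (0.99 to 1.31) higher at E14.5 than at E12.5. In deposited TPM Ddr2 stood at 3.73 at E12.5 and at 2.96 at E14.5, so this rise rests on the scaling. Itga11, an integrin chain that binds collagen I, had 76, 321, 342 and 204 counts and was 2.21 (1.84 to 2.59) higher at E12.5. Itga11 and Ddr2 were the 1 higher and 1 lower of 10 tested at E12.5, near the 9.03% and 9.72% of all genes. The other receptor past 2-fold was Gp6, the platelet collagen receptor, lower at E13.5 and from E12.5 to E14.5, with 5 to 31 counts in a library. At E13.5 it was 1 lower of 10, against 2.14% of all genes. From E12.5 to E14.5, 1 was higher and 1 lower of 10, against 9.00% and 4.15%.

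The 12 fibril-associated proteins showed the most rises on the later days. From E12.5 to E14.5, 6 of the 12 were higher and 0 lower, against 9.00% and 4.15% of all genes. Total counts lower each value of this comparison by 1.03, which leaves Prelp and Thbs2 below 2-fold. Dcn, decorin, a proteoglycan that binds collagen I fibrils, had 971, 1052, 2667 and 3118 counts and was 2.30 (2.20 to 2.40) higher. Lum, lumican, was 2.22 (2.04 to 2.41) higher, Ogn, osteoglycin, 3.10 (2.70 to 3.53), Prelp 1.79 (1.21 to 2.39) and Thbs2, thrombospondin 2, 1.78 (1.62 to 1.94). Kera, keratocan, was also higher, on at most 17 counts. Dcn and Ogn were higher at E13.5 (3.80% of all genes), and Dcn, Kera, Lum and Ogn at E14.5 (6.43%). The rises at E14.5 rest on the scaling. In deposited TPM, Dcn, Lum and Ogn stood at 66.6, 17.6 and 4.46 at E13.5 and at 53.3, 16.4 and 4.27 at E14.5. Kera went from 0.0958 to 0.279 TPM. Against 30.3 and 9.83 TPM at E12.5, Dcn and Lum were below 2-fold at E14.5. At E12.5 Ogn and Prelp were higher, from 17 and 6 counts at E11.5, and Postn, periostin, was lower at -1.27 (-1.41 to -1.14). The shares of all genes were 9.03% and 9.72%. Fn1, fibronectin, and Sparc, a collagen-binding matricellular protein, had the most counts of the list and did not pass 2-fold.

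Of the 10 breakdown genes, Timp3, an inhibitor of metalloproteinases, had 2794, 5609, 8208 and 3745 counts and was 1.13 (1.07 to 1.20) higher at E12.5. Mmp9, a gelatinase, was also higher, from 28 to 56 counts, and Fap, a fibroblast protease, was lower, from 346 to 46. These were 2 higher and 1 lower of 8 tested, against 9.03% and 9.72% of all genes. None passed at E13.5. At E14.5 Fap and Mmp8, a collagenase on at most 13 counts, were higher than at E13.5, 2 of 9 tested against 6.43% of all genes. Ctsk, cathepsin K, passed 2-fold with them from E12.5 to E14.5, 3 of 9 against 9.00%. Deposited TPM put Fap, Ctsk and Mmp8 at 0.983, 1.49 and 0.220 at E12.5 and at 0.850, 1.10 and 0.189 at E14.5. Fap and Mmp8 stood at 1.22 and 0.106 TPM at E13.5. Mmp13, a collagenase, had 8, 1, 1 and 0 counts.

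Other cell types that could bring collagen message changed as follows. Smooth muscle and pericyte markers were summed at 285, 233, 312 and 397 scaled CPM. At E12.5 Cspg4 and Myh11 were higher by at least 2-fold and Des and Rgs5 lower, against 9.03% and 9.72% of all genes. From E12.5 to E14.5, 3 of 8 were higher (Acta2, Myh11 and Rgs5), against 9.00% of all genes, and Col1a1, Col1a2 and Col3a1 were higher too. In deposited TPM, Acta2, Myh11 and Rgs5 stood at 29.8, 3.84 and 3.88 at E12.5 and at 26.3, 3.38 and 3.19 at E14.5. Skeletal muscle markers stood between 1.27 and 4.70, with Tmem8c, a myoblast fusion gene, at 0 in 2 of the 4, neural crest and glia markers between 29 and 39.0, and erythroid markers between 64.2 and 122. Coelomic epithelium and early gonad markers stood at 408, 836, 775 and 699, and pregranulosa markers at 135, 209, 275 and 214. Macrophage markers fell at E12.5 in 6 of 6 genes (9.72% of all genes), from 59.9 to 24.5. Their part in the collagen values was not tested.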

How the data were processed

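RNA of 4 pools was processed by the authors with a stranded kit and UMIs, rRNA depletion and paired-end sequencing, cutAdapt, STAR (mm10), UMI-tools and featureCounts. Tool versions, the annotation release and the strand setting of the counting are not given in the sources used here, so reads of a gene and an overlapping antisense gene cannot be told apart. The deposited counts are deduplicated read counts, and the deposited RPKM and TPM were computed by the authors from them. Scaled RPKM was recomputed here from the counts. Counts were scaled by TMM (edgeR 4.0.16, R 4.3.3) over 4 libraries and handled in Python 3.11.15 with pandas 2.3.3, numpy 2.4.6 and scipy 1.17.1. A count of 0 was put at a floor of 3 counts. Intervals are exact Clopper-Pearson at 95%. The steps were tested on simulated data. DESeq2 1.42.0 size factors and edgeR's exact test at a preset biological coefficient of variation were alternatives.

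All collagen genes were named. Of pathway and marker lists, the genes past 2-fold in a comparison, the most abundant and those at 0 were named. Sums over a list used all its genes. The members and lists were chosen with earlier results of these data known. Older symbols in the files were matched through RefSeq synonyms.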

Additional observations from a re-analysis of the deposited data

How the results depend on the processing

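No paired analysis was possible because each time point had 1 library, and no replicate could be left out for the same reason. DESeq2 size factors, TMM from the 2 libraries alone, no filter on low counts, at least 10 counts in both libraries and a prior count of 2 kept each collagen value within its counting interval. Scaling decided the direction at E14.5. For E12.5, E13.5 and E14.5 against the day before and E14.5 against E12.5, total counts gave 18, 1, 0 and 2 collagens higher, 4, 1, 11 and 14 lower and medians of 0.50, 0.12, -0.75 and -0.53. The ratio of deposited TPM gave 19, 2, 0 and 1 higher, 3, 1, 30 and 20 lower and medians of 0.63, 0.22, -1.31 and -0.98. Total counts without Rn18s-rs5, chosen after seeing the data, gave 18, 1, 1 and 6 higher, 5, 1, 2 and 6 lower and medians of 0.38, 0.11, -0.012 and 0.20. At 4-fold in place of 2-fold, 4, 0, 0 and 2 were higher and 0, 1, 0 and 2 lower. The edgeR exact test at a preset variation of 0.1 called 17, 1, 3 and 13 higher and 5, 1, 2 and 2 lower, and at 0.4 it called 3, 0, 0 and 0 higher and 0, 0, 0 and 1 lower. Under total counts, 3 of 43 collagens lay above 0 for E14.5 against E13.5 and 12 for E14.5 against E12.5, where TMM gave 34 and 29, and deposited TPM gave 0 and 6. Among genes past 2-fold under TMM, those that changed sign under total counts were Col1a1 at -0.0078 (E14.5 against E13.5) and Col8a2 at -0.027 (E14.5 against E12.5). Under deposited TPM, the genes past 2-fold under TMM that changed sign were, for E14.5 against E13.5, Col1a1 (-0.57), Col6a5 (-0.28), Col8a1 (-0.36) and Col17a1 (-0.50), and for E14.5 against E12.5 Col1a2 (-0.24), Col3a1 (-0.35), Col4a4 (-0.43), Col6a4 (-0.21), Col8a2 (-0.48), Col13a1 (-0.33) and Col16a1 (-0.37). Ratios within a library and shares of collagen TPM are free of this choice. Genes with under 100 counts, such as Col5a3, Col6a5, Col8a1, Col17a1, Col19a1 and Col28a1, have wide intervals, and the spread between pools is unknown.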

Other observations

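The files list 7 mature miR-29 features, a miRNA family known to target collagen transcripts, and they held 0 counts over the 4 libraries, which allows up to 3 counts of any of them in a library and covers counting error only.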
